A study of Rattus norvegicus with 23 samples.

Results

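Cell cycle and proliferation genes were followed in kidney RNA of male rats of 2 strains, SBN/y and SBH/y, each with 2 kidneys or with 1. A list of 41 genes was taken, from G1 cyclins and DNA replication factors to mitotic kinases and cytokinesis proteins. Of these, 38 had a probe set annotated with a single gene symbol, out of 14217 genes so annotated on the Affymetrix array. Where a gene had several such probe sets, the one with the highest average value was read. Rrm2, a ribonucleotide reductase subunit, was found on probe sets that carry several symbols, and the mitotic genes Nek2 and Tpx2 had no single-symbol probe set, so these 3 were not analysed here.

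The 23 arrays fell into 4 groups. They were 5 arrays of SBN/y with 2 kidneys, 6 of SBN/y after right uninephrectomy (surgical removal of 1 kidney), 6 of SBH/y with 2 kidneys and 6 of SBH/y after right uninephrectomy. Rats with 2 kidneys had a sham operation, and all animals were killed at 4 months of age, 3 months after surgery, on ordinary chow. SBN/y and SBH/y are inbred rats from the Sabra lines bred for resistance and for susceptibility to salt-induced hypertension, so the strains differ at many loci. Proteinuria was the subject of the study, according to its title. The labels give neither the kidney region nor, for rats with 2 kidneys, which kidney was used, and they do not state that each array is a separate animal. The p-values therefore measure the spread between these samples.

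Cells that divide pass through G1, S phase, G2 and mitosis. Cyclins switch on cyclin-dependent kinases at each step, MCM proteins unwind DNA for replication, and kinesins and other motor and signalling proteins build the spindle and split the cell. Many of the genes are transcribed in waves, the replication genes with E2F factors before S phase and the mitotic genes later through promoters with CCAAT boxes and a cell cycle homology region, known as CHR. Few cells divide in the healthy adult kidney, and tubule cells are known to re-enter the cycle after injury.

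The promoters of 6 members are shown because the promoters of mitotic members, called or not, often held 2 short motifs, and the replication gene Mcm5 shows another type. The motifs are textbook ones, and the 6 genes were chosen after their values were seen. The stretches are the 250 bases before the annotated start of each gene in RefSeq's GRCr8 table, 5′ to 3′. Capitals mark CCAAT boxes (CCAAT, or ATTGG on the other strand), the letters of the CHR element (TTTGAA or TTCAAA) and, in Mcm5, the E2F-type letters TTTGGCG and TTTCCCG on either strand. In Mki67 a TTTGAA shares 1 base with the CCAAT box beside it. Cdk1 lies at chr20:19265043-19265292, plus strand. Mki67 lies at chr1:199952594-199952843, minus strand. Top2a lies at chr10:84473094-84473343, minus strand. The window of Prc1 is chr1:143659231-143659480, plus strand. That of Ect2 is chr2:111966627-111966876, minus strand. The Mcm5 window is chr19:13488563-13488812, plus strand.
Cdk1: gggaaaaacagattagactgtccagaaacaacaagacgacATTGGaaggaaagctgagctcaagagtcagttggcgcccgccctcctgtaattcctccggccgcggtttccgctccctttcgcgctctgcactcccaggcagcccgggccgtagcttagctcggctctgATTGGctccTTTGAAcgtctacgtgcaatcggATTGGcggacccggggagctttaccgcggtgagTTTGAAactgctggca
Mki67: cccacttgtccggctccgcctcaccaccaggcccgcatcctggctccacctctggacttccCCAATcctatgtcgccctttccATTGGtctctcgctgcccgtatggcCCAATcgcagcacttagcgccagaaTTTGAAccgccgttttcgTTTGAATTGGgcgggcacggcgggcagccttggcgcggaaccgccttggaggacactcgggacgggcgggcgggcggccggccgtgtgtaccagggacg
Top2a: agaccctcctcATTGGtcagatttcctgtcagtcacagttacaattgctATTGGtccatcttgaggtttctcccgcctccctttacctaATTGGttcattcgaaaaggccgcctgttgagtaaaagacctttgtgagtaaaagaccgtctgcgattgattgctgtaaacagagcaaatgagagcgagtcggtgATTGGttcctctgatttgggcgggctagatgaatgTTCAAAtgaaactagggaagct
Prc1: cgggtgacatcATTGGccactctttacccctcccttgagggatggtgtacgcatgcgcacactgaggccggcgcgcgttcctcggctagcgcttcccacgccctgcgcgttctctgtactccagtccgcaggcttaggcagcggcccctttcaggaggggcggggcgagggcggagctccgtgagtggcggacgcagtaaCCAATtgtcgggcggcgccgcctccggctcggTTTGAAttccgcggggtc
Ect2: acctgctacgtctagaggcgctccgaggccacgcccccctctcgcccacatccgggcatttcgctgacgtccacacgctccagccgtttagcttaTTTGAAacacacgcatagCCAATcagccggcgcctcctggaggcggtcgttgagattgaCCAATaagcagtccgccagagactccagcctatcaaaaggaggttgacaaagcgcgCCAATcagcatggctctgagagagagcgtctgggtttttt
Mcm5: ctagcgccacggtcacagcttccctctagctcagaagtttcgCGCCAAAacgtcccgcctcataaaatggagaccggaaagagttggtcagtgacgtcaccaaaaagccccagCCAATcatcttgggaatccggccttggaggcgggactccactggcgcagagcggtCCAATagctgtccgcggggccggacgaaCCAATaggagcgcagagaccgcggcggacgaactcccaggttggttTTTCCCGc

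In SBH/y, 13 of the 38 genes were higher with 1 kidney than with 2 in a limma fit over 31042 probe sets (adjusted p under 0.05), and 0 were lower. Among all probe sets tested, 3.06% were called higher and 1.97% lower in the same comparison. Over the 14217 genes read from 1 probe set each, as the 38 were, these shares were 4.76% and 2.4%. All 13 belong to the 26 genes that act from cyclin A to cytokinesis, here called the G2 and M phase groups, and 8 of them to the 11 genes for chromosomes, spindle and cytokinesis. The median difference of the 38 genes was 0.24 on the log2 scale, against -0.01 over all probe sets, and 32 of 38 estimates were above 0. In SBN/y 0 of 38 genes were called after uninephrectomy, against 0.168% of all probe sets, and the median difference was 0.03. At an unadjusted p under 0.05 in limma, 4 genes of SBN/y passed, Mcm3, Ccnb2 and Kif11 with higher values and Mcm7 with lower, beside 7.62% of all probe sets. In these whole-tissue samples a change in the number of dividing cells and a change in RNA per cell cannot be told apart.

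**Figure D1:**
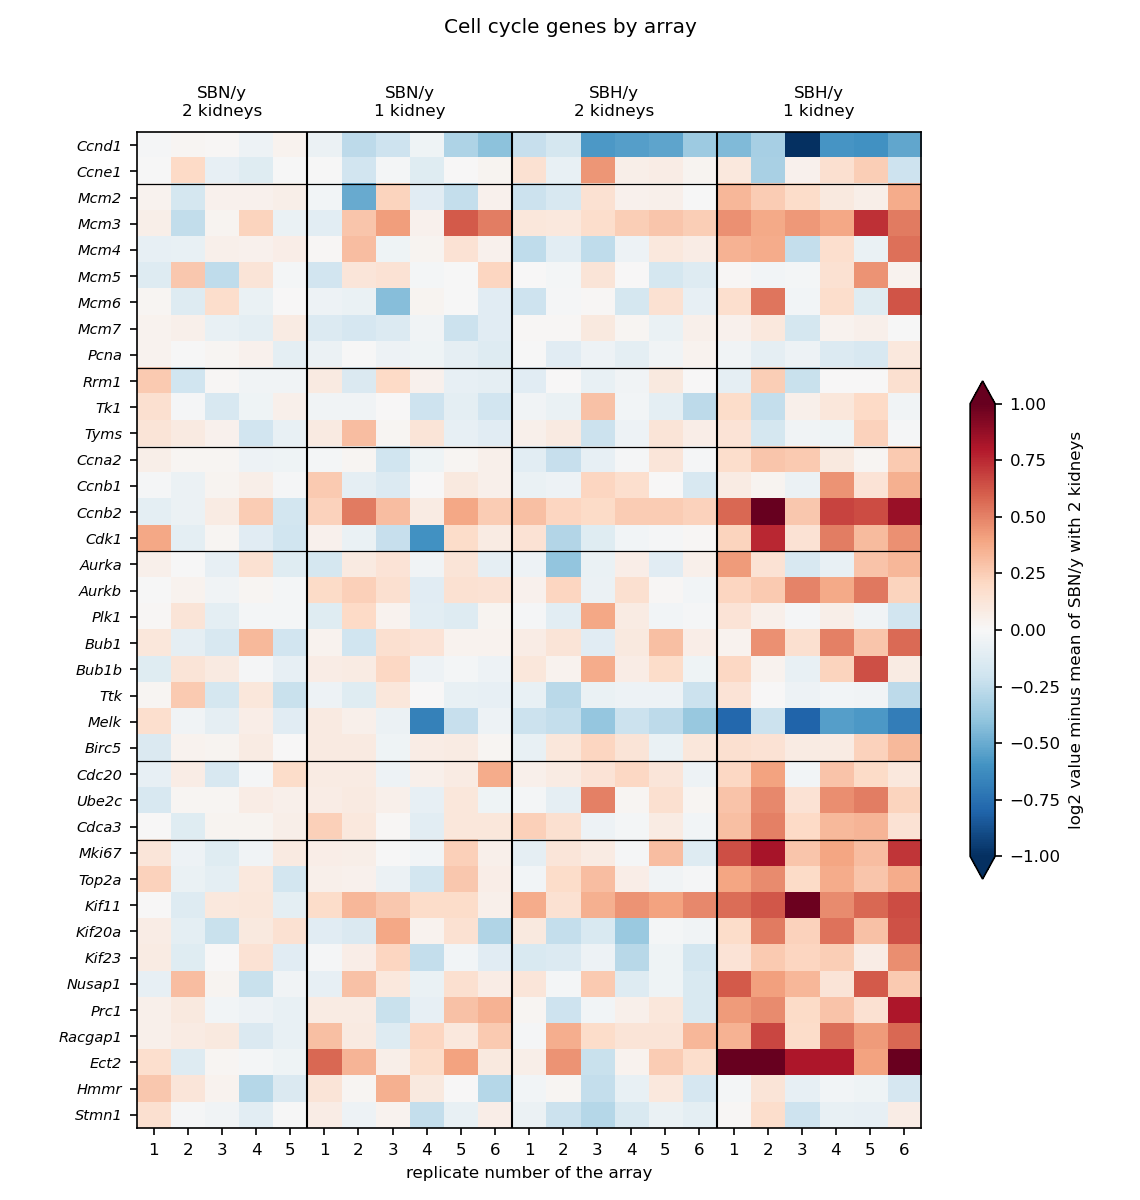
Log2 value of each of the 38 genes (rows, by functional group) on each of the 23 arrays (columns, by group and replicate number), minus the gene's mean in SBN/y with 2 kidneys. Red is higher and blue lower, with colours ending at 1 log2 unit. The 6 SBH/y arrays with 1 kidney are redder in the lower blocks, the cyclins and the spindle and cytokinesis genes, while Ccnd1 and Melk are bluer there.

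Differences below are on the log2 scale, with the standard error of the fit, and group values are means with SD over 5 arrays in SBN/y with 2 kidneys and 6 in each other group. The highest value of the 4 Xist probe sets on any array, 3.13, served as background, since Xist is transcribed from the inactive X chromosome and these rats are male.

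Ect2, an exchange factor needed for cytokinesis, had the largest difference of the 38 genes in SBH/y after uninephrectomy. The 5 arrays of SBN/y with 2 kidneys read 3.25, 2.95, 3.10, 3.06 and 3.04. With 1 kidney, SBN/y ran from 3.14 to 3.65 (median 3.34). SBH/y ran from 2.86 to 3.53 (median 3.19) with 2 kidneys and from 3.48 to 4.94 (median 3.98) with 1. The SBH/y groups overlapped only in the lowest array with 1 kidney and the highest with 2. Ect2 rose by 0.875 ± 0.15 in SBH/y, a 1.83-fold difference (adjusted p = 0.000477, limma). In SBN/y the difference was 0.28 ± 0.16 (adjusted p = 0.764). The mean of SBN/y with 2 kidneys, 3.08, was under background, while the SBH/y mean with 1 kidney was 4.08 ± 0.49.

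Kif20a, a kinesin of the central spindle, read 3.96, 3.79, 3.67, 3.98 and 4.04 on the arrays of SBN/y with 2 kidneys. Its range was 3.59 to 4.28 (median 3.85) in SBN/y with 1 kidney. In SBH/y it was 3.52 to 3.98 (median 3.79) with 2 kidneys and 4.07 to 4.53 (median 4.29) with 1. Every SBH/y array with 1 kidney stood above every SBH/y array with 2. The gene rose by 0.52 ± 0.10 in SBH/y (adjusted p = 0.00175), while SBN/y gave 0.00 ± 0.11 (adjusted p = 0.998). Kif23, the kinesin of the centralspindlin complex at the same midzone, rose by 0.37 ± 0.07 (adjusted p = 0.00181), from 3.29 ± 0.09 to 3.66 ± 0.14, and the groups did not overlap. Its second probe set, under background in all 4 groups, gave 0.05 ± 0.08 (adjusted p = 0.83).

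Mki67 encodes Ki-67, the nuclear protein used to stain cycling cells. The SBN/y arrays with 2 kidneys read 3.39, 3.22, 3.15, 3.24 and 3.36, and those with 1 kidney 3.24 to 3.51 (median 3.32). SBH/y ran from 3.14 to 3.57 (median 3.30) with 2 kidneys and from 3.54 to 4.09 (median 3.79) with 1. Only 1 array with 2 kidneys reached into the range with 1. Mki67 rose by 0.48 ± 0.09 in SBH/y, 1.40-fold (adjusted p = 0.000721), with 0.06 ± 0.09 in SBN/y (adjusted p = 0.953).

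Prc1, which bundles the antiparallel microtubules of the midzone, read 4.56, 4.61, 4.48, 4.46 and 4.43 in SBN/y with 2 kidneys and 4.29 to 4.86 (median 4.59) with 1. In SBH/y its range moved from 4.30 to 4.62 (median 4.50) with 2 kidneys to 4.66 to 5.32 (median 4.87) with 1, without overlap. The rise was 0.42 ± 0.10 (adjusted p = 0.00727). Nusap1, a spindle-binding protein, rose by 0.39 ± 0.09 (adjusted p = 0.0106), from 4.26 ± 0.16 to 4.65 ± 0.20. Its second probe set gave 0.13 ± 0.08 (adjusted p = 0.459).

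Kif11, the kinesin Eg5 that pushes spindle poles apart, differed by strain as well as by kidney number. Its arrays read 6.87, 6.73, 6.97, 6.98 and 6.77 in SBN/y with 2 kidneys, and 6.92 to 7.20 (median 7.05) in SBN/y with 1. In SBH/y it ran from 7.02 to 7.35 (median 7.25) with 2 kidneys and from 7.34 to 7.85 (median 7.46) with 1. The SBH/y groups met only at their edges. The rise in SBH/y was 0.275 ± 0.07 (adjusted p = 0.0255), and SBN/y gave 0.20 ± 0.08 (adjusted p = 0.481). Without SBH/y replicate 3 with 1 kidney, the highest array, the rise was 0.21 (adjusted p = 0.0661), and without SBH/y replicate 2 with 2 kidneys it was 0.23 (adjusted p = 0.0812). A second Kif11 probe set gave 0.16 ± 0.08 (adjusted p = 0.346).

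Top2a, the topoisomerase that untangles sister chromosomes, rose by 0.27 ± 0.08 (adjusted p = 0.046), from 3.66 ± 0.14 to 3.92 ± 0.10 in SBH/y. That call was lost in 8 of the 12 fits that each left out 1 SBH/y array, with estimates from 0.24 to 0.31 and an adjusted p of up to 0.113, and its second probe set gave 0.16 ± 0.07 (adjusted p = 0.241). Racgap1, the other subunit of centralspindlin, narrowly missed the threshold at 0.27 ± 0.08 (adjusted p = 0.0501) and was not called. Its second probe set gave -0.07 ± 0.09 (adjusted p = 0.819). Stmn1, a microtubule destabiliser, gave 0.13 ± 0.07 and Hmmr, a spindle assembly factor, 0.03 ± 0.09, and neither passed (adjusted p = 0.352 and 0.936).

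**Figure D2:**
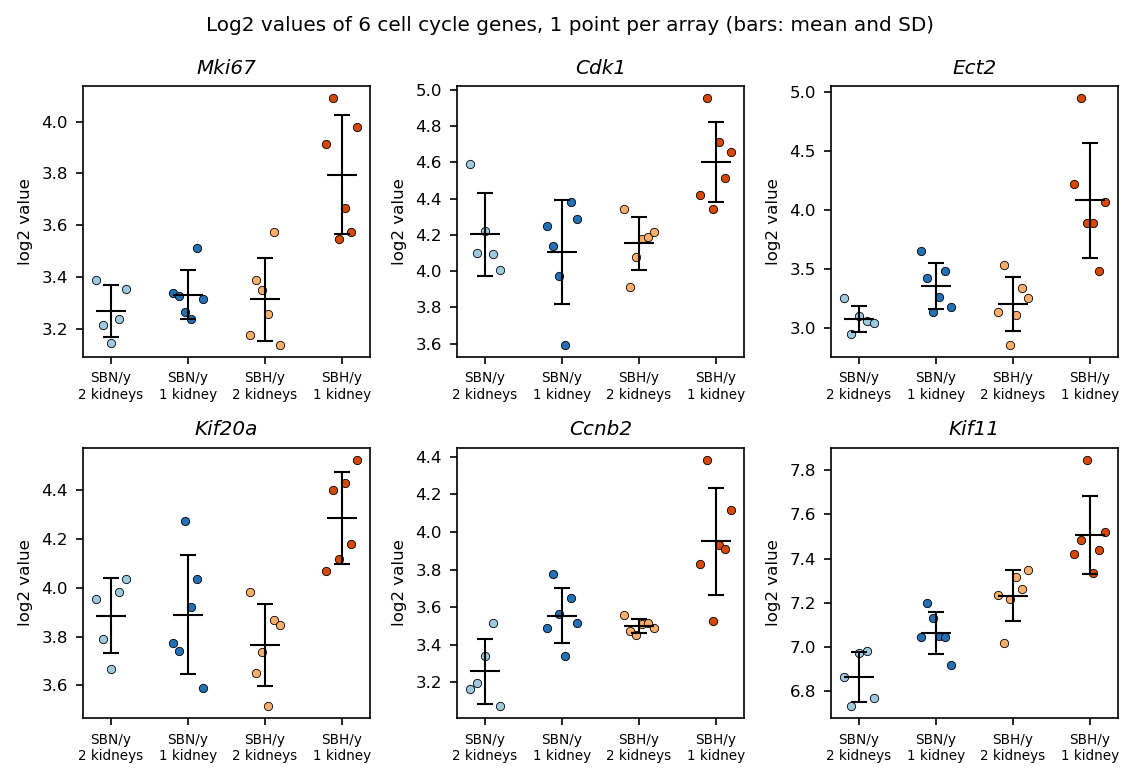
Log2 values of Mki67, Cdk1, Ect2, Kif20a, Ccnb2 and Kif11 (vertical axes) in the 4 groups (horizontal axes), 1 point per array, with mean and SD as bars. In SBH/y with 1 kidney the means are 3.79, 4.60, 4.08, 4.29, 3.95 and 7.51, above those of the other 3 groups for each of these genes.

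Among the S and M phase cyclins and their kinase, 3 of 4 genes rose in SBH/y. Cdk1, the kinase that starts mitosis, read 4.59, 4.10, 4.22, 4.09 and 4.00 in SBN/y with 2 kidneys and 3.60 to 4.38 (median 4.19) with 1. SBH/y ran from 3.91 to 4.34 (median 4.18) with 2 kidneys and from 4.34 to 4.95 (median 4.59) with 1, just without overlap. The rise was 0.45 ± 0.12 (adjusted p = 0.0214), against -0.10 ± 0.12 in SBN/y (adjusted p = 0.946). It was 0.38 (adjusted p = 0.0663) without SBH/y replicate 2 with 1 kidney and 0.40 (adjusted p = 0.0629) without SBH/y replicate 2 with 2 kidneys.

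Ccnb2, a cyclin B partner of Cdk1, read 3.16, 3.20, 3.34, 3.51 and 3.07 in SBN/y with 2 kidneys and 3.34 to 3.78 (median 3.54) with 1. The 6 SBH/y arrays with 2 kidneys lay close together, from 3.45 to 3.56 (median 3.50), and those with 1 kidney spread from 3.53 to 4.38 (median 3.92). Ccnb2 rose by 0.45 ± 0.10 in SBH/y (adjusted p = 0.00493). Its difference in SBN/y, 0.30 ± 0.10, did not pass (adjusted p = 0.381). Ccnb1, the other B cyclin measured, gave 0.15 ± 0.08 in SBH/y (adjusted p = 0.407) and 0.23 ± 0.09 on a second probe set (adjusted p = 0.145). Ccna2, cyclin A2 of S phase and G2, rose by 0.24 ± 0.06 (adjusted p = 0.0172), but its means, 2.39 with 2 kidneys and 2.63 with 1, were both under background. Without SBH/y replicate 2 with 2 kidneys the Ccna2 difference was 0.20 (adjusted p = 0.0579).

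Of the 8 mitotic kinases and checkpoint genes, 1 rose in SBH/y. Aurkb, the kinase of the chromosomal passenger complex, went from 3.01 ± 0.11, under background, to 3.31 ± 0.14, a rise of 0.29 ± 0.07 (adjusted p = 0.00691). Its partner Birc5, or survivin, gave 0.10 ± 0.06 (adjusted p = 0.441). The spindle pole kinase Aurka gave 0.245 ± 0.09 (adjusted p = 0.144) and Plk1, which acts throughout mitosis, -0.05 ± 0.07 (adjusted p = 0.843). The checkpoint genes Bub1, Bub1b and Ttk gave 0.24, 0.07 and 0.08, with adjusted p of 0.167, 0.816 and 0.686.

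Melk, a maternal embryonic leucine zipper kinase often grouped with proliferation genes, had the opposite sign. Its difference in SBH/y was -0.32 ± 0.10 (adjusted p = 0.0722). The 5 arrays of SBN/y with 2 kidneys read 7.78, 7.58, 7.53, 7.68 and 7.50, and SBN/y with 1 kidney ran from 6.94 to 7.70 (median 7.56). SBH/y ran from 7.22 to 7.40 (median 7.36) with 2 kidneys and from 6.81 to 7.40 (median 6.98) with 1. The SBH/y groups overlapped.

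Cdca3, which promotes entry into mitosis and is degraded through the anaphase promoting complex, rose by 0.24 ± 0.07 in SBH/y (adjusted p = 0.0325), from 4.20 ± 0.12 to 4.43 ± 0.13. The call was lost in 8 of the 12 fits without 1 SBH/y array, with estimates from 0.20 to 0.27 and an adjusted p of up to 0.0986. Ube2c, the ubiquitin-conjugating enzyme of that complex, gave 0.25 ± 0.08 (adjusted p = 0.0747), and its activator Cdc20 0.10 ± 0.07 (adjusted p = 0.563).

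Of the 12 genes of G1, DNA replication and nucleotide supply, limma called 0 in SBH/y after uninephrectomy. At an unadjusted p under 0.05, 5 passed, beside 15.6% of all probe sets in either direction. They were Mcm2, Mcm3, Mcm4 and Mcm6 with higher values and Ccnd1 with lower. Mcm3, a subunit of the replicative helicase, came closest. It read 3.91, 3.61, 3.87, 4.08 and 3.78 in SBN/y with 2 kidneys and 3.75 to 4.46 (median 4.20) with 1. SBH/y ran from 3.95 to 4.13 (median 4.06) with 2 kidneys and from 4.23 to 4.58 (median 4.30) with 1, without overlap. The difference was 0.29 ± 0.10 in SBH/y (adjusted p = 0.0825) and, of nearly the same size, 0.30 ± 0.10 in SBN/y (adjusted p = 0.377). In a fit on the SBH/y groups alone Mcm3 passed (adjusted p = 0.0191).

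The other helicase subunits gave 0.24 for Mcm2, 0.27 for Mcm4, 0.13 for Mcm5, 0.28 for Mcm6 and -0.01 for Mcm7 in SBH/y, with adjusted p from 0.134 to 0.945. Pcna, the sliding clamp of DNA polymerase, gave -0.02 ± 0.05 (adjusted p = 0.934) and stayed between 8.37 and 8.63 on the SBH/y arrays with 1 kidney. The nucleotide supply genes Rrm1, Tk1 and Tyms gave 0.04, 0.08 and 0.01, each with an SE of 0.08. The G1 cyclins Ccnd1 and Ccne1 gave -0.24 ± 0.11 and -0.11 ± 0.09 (adjusted p = 0.312 and 0.625).

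**Figure D3:**
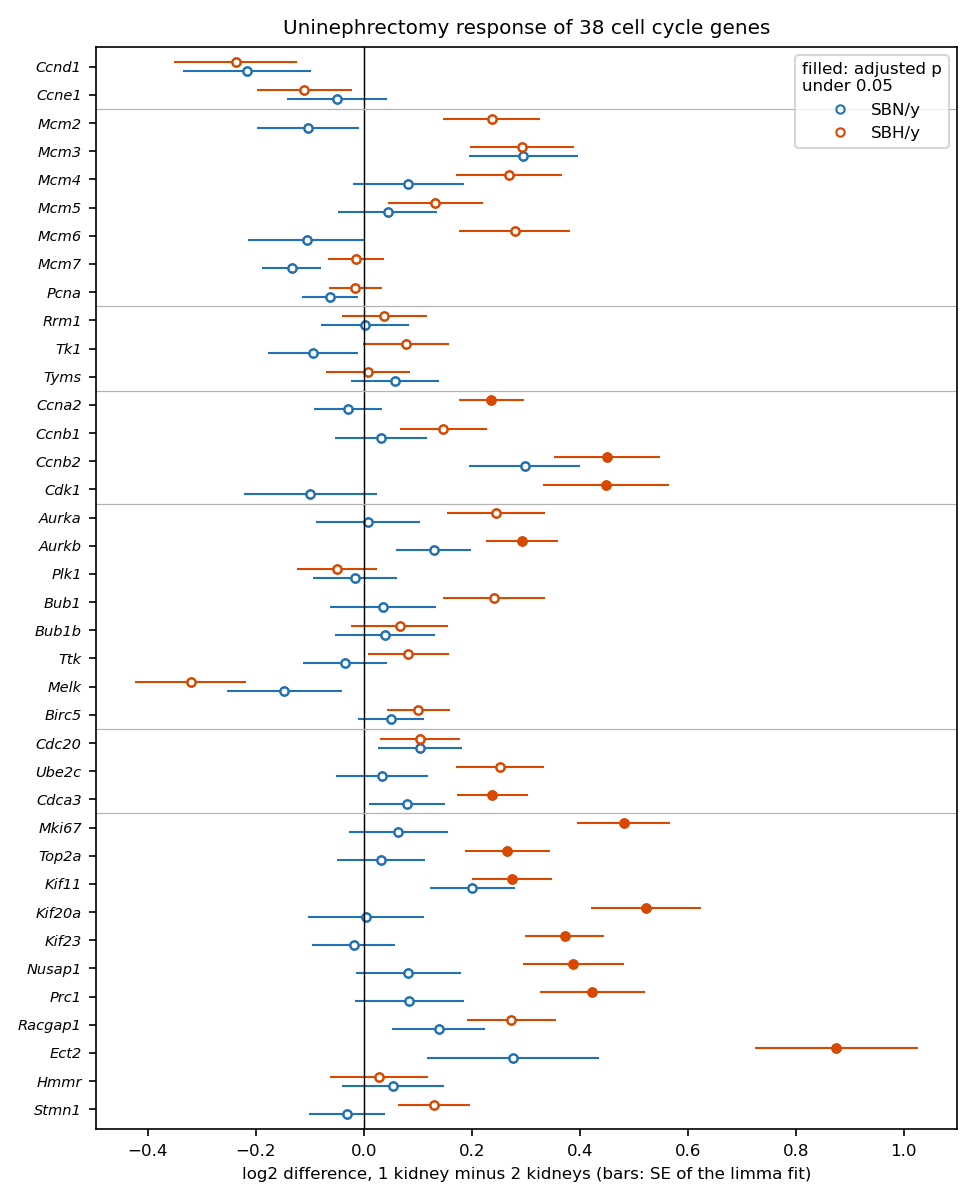
Difference between 1 and 2 kidneys on the log2 scale (horizontal axis) for each of the 38 genes (vertical axis, by functional group), in blue for SBN/y and orange for SBH/y. Points are estimates of the limma fit, bars their SE, and filled points have an adjusted p under 0.05. The 13 filled points are all SBH/y estimates, from 0.24 for Ccna2 to 0.875 for Ect2.

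Whether the response differed between strains was tested directly, as the SBH/y response minus the SBN/y response. By limma 0 of 38 genes passed, beside 0.254% of all probe sets, so a difference between the strains' responses was not shown for any single gene. At an unadjusted p under 0.05, 10 genes passed, all with larger responses in SBH/y, against 8.06% of all probe sets in either direction. They were Cdk1 (0.55 ± 0.17), Kif20a (0.52 ± 0.15), Mki67 (0.42 ± 0.13), Kif23 (0.39 ± 0.11), Ect2 (0.60 ± 0.22), Prc1 (0.34 ± 0.14), Nusap1 (0.31 ± 0.13), Ccna2 (0.27 ± 0.09), Mcm2 (0.34 ± 0.13) and Mcm6 (0.38 ± 0.15). The lowest adjusted p was 0.138, for Kif23. The median of the 38 differences was 0.16, against -0.004 over all probe sets, and 31 of 38 were above 0.

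Averaged per array, the 26 genes of the G2 and M phase groups stood 0.28 ± 0.09 above SBN/y with 2 kidneys in SBH/y with 1 kidney (0.14 to 0.42 over its 6 arrays). The same mean was 0.05 ± 0.06 in SBN/y with 1 kidney and 0.02 ± 0.03 in SBH/y with 2, and no array of the other groups exceeded 0.102. The 12 genes of G1 and S phase averaged 0.05 ± 0.09 in SBH/y with 1 kidney, from -0.117 to 0.132. Replicate 2 of that group had the highest value of its group in 15 of the 38 genes, and replicate 3 the lowest in 17. The signal difference between the 3′ and 5′ GAPDH control probe sets, a measure of RNA integrity, was highest in replicate 2 (0.721) and lowest in replicate 3 (0.417) of the same 6 arrays. By group it was 0.352 ± 0.032 and 0.451 ± 0.043 in SBN/y with 2 and 1 kidneys, and 0.460 ± 0.056 and 0.533 ± 0.109 in SBH/y. With this GAPDH difference as a covariate, 9 genes remained called higher in SBH/y and Melk was called lower.

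**Figure D4:**
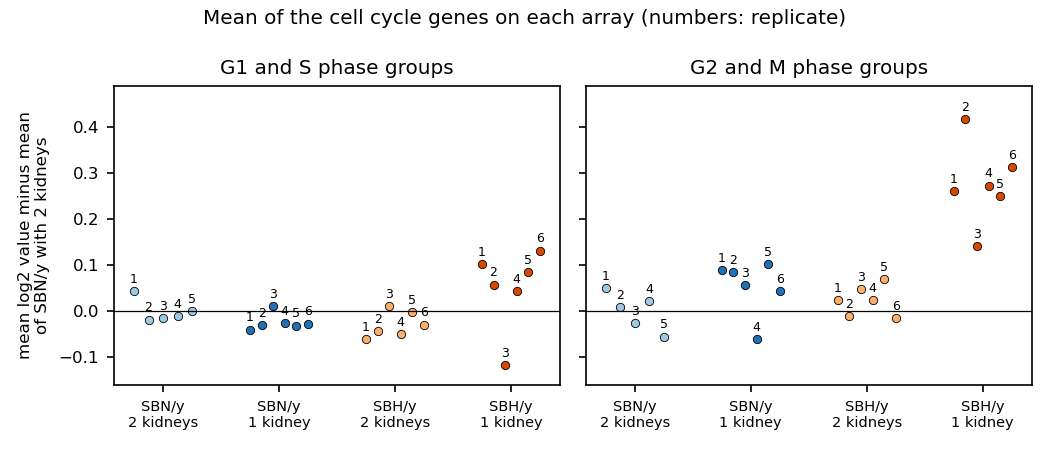
Mean log2 value of the 12 genes of G1 and S phase groups (left) and of the 26 genes of G2 and M phase groups (right) on each array, minus the mean of SBN/y with 2 kidneys. Numbers are replicate numbers. On the right the 6 SBH/y arrays with 1 kidney lie from 0.142 to 0.418, above all other arrays, and on the left their range, -0.117 to 0.132, overlaps the other groups.

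Strain was compared at each kidney number. With 2 kidneys, 1 of the 38 genes was higher in SBH/y than in SBN/y and 1 lower, beside 4.32% and 4.75% of all probe sets. Kif11 was higher by 0.37 ± 0.08 (adjusted p = 0.00163), and each SBH/y array exceeded each SBN/y array. Its second probe set gave 0.23 ± 0.09 (adjusted p = 0.104). Ccnd1, cyclin D1 of the G1 phase, was lower by -0.40 ± 0.12 (adjusted p = 0.0301). Its SBN/y arrays read 10.27, 10.30, 10.29, 10.23 and 10.31, and the SBH/y arrays 9.71 to 10.10 (median 9.84), without overlap. Its 2 other probe sets gave -0.18 ± 0.11 and -0.28 ± 0.10 (adjusted p = 0.395 and 0.0877). The Ccnd1 call was lost in 7 of 11 fits without 1 array, with an adjusted p of up to 0.0724. Groups did not overlap for Kif11 (3.73% of all probe sets in that direction) and, with lower values in SBH/y, for Ccnd1 and Melk (3.84%).

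With 1 kidney, 18 genes were higher in SBH/y than in SBN/y and 2 lower, beside 7.55% and 6.43% of all probe sets. The 13 genes that rose in SBH/y after uninephrectomy were among the 18. These 2 comparisons share the 6 SBH/y arrays with 1 kidney, so their calls are not independent. Ect2 was higher by 0.72 ± 0.15 (adjusted p = 0.00101), Cdk1 by 0.50 ± 0.12 (adjusted p = 0.0034), Mki67 by 0.46 ± 0.09 (adjusted p = 0.00028) and Kif11 by 0.44 ± 0.07 (adjusted p = 7.21e-05). The second Kif11 probe set gave 0.21 ± 0.08 (adjusted p = 0.0933), and those of Top2a, Nusap1 and Kif23 gave 0.18, 0.18 and -0.06, with adjusted p of 0.0833, 0.133 and 0.745. Kif20a was higher by 0.40 ± 0.10 and Ccnb2 by 0.395 ± 0.10, with adjusted p of 0.00702 and 0.00543. Ccnb1 was not called (0.13 ± 0.08, adjusted p = 0.352), while its second probe set gave 0.365 ± 0.09 (adjusted p = 0.00395).

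The 5 further genes were Mcm2, Mcm6, Bub1, Ube2c and Racgap1. Mcm2 went from 5.05 ± 0.25 in SBN/y to 5.37 ± 0.12 in SBH/y (0.32 ± 0.09, adjusted p = 0.0151). Without SBN/y replicate 2, the lowest array, the Mcm2 difference was 0.24 (adjusted p = 0.0521). Mcm6 was higher by 0.33 ± 0.10 (adjusted p = 0.0278), a call lost without any of 3 arrays, SBH/y replicates 2 and 6 and SBN/y replicate 3 (0.27, 0.25 and 0.27). Bub1, a spindle checkpoint kinase, was higher by 0.30 ± 0.09 (adjusted p = 0.0304), with both means, 2.64 and 2.94, under background, and lost its call in 6 of 12 fits without 1 array. Ube2c was higher by 0.32 ± 0.08 (adjusted p = 0.0067) and Racgap1 by 0.32 ± 0.08 (adjusted p = 0.00663), while a second Racgap1 probe set gave -0.002 ± 0.09 (adjusted p = 0.994).

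Melk was lower in SBH/y with 1 kidney by -0.46 ± 0.10 (adjusted p = 0.00207), and Ccnd1 by -0.42 ± 0.11 (adjusted p = 0.0102). Ccnd1 ran from 9.87 to 10.23 (median 10.04) in SBN/y and from 8.93 to 9.94 (median 9.72) in SBH/y, where replicate 3 gave the lowest value. Its 2 other probe sets were lower by -0.33 ± 0.10 and -0.36 ± 0.10 (adjusted p = 0.0222 and 0.00953). The groups did not overlap for Mki67, Kif11 and Ube2c, beside 3.93% of all probe sets with higher values in SBH/y. With the GAPDH 3′ to 5′ difference as a covariate, the count of called genes fell from 20 to 11, 9 higher and 2 lower. Prc1 lost its strain call in 7, Nusap1 in 4, Aurkb and Cdca3 in 3 each, Kif23 in 2 and Ccna2 in 1 of the 12 fits without 1 array.

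Groups that did not overlap were counted for uninephrectomy too. In SBH/y 5 genes, Cdk1, Kif20a, Kif23, Prc1 and Mcm3, had every array with 1 kidney above every array with 2, as did 1.81% of all probe sets. In SBN/y 0 of 38 genes had groups apart, beside 1.26% of all probe sets in either direction.

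Several of these genes lay near background. Means at or under 3.13 were found for 6 genes in SBN/y with 2 kidneys, 5 in SBN/y with 1, 5 in SBH/y with 2 and 3 in SBH/y with 1. Ccna2, Bub1 and Ttk were there in all 4 groups. Aurkb and Bub1b were there in every group but SBH/y with 1 kidney, where they reached 3.31 and 3.14, and Ect2 in SBN/y with 2 kidneys. Of the 13 genes called in SBH/y, Ccna2 and Aurkb started from a mean under background. The other 32 of the 38 genes were above background in all 4 groups. Ect2, Kif23 and Mki67 stood little above it in SBH/y with 2 kidneys, at 3.20, 3.29 and 3.31. In that group 12 of the 13 called genes lay under 4.66, the median of all probe sets' means, as did 26 of the 38 genes.

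Promoters of 32 of the 38 genes were found in RefSeq's GRCr8 table, over 250 bases before to 50 after the start. CCAAT, read on both strands, was in 11 of the 11 promoters found for the genes called in SBH/y, in 7 of 11 of the G2 and M phase genes that were not called (63.6%) and in 37.3% of 11700 promoters of genes on the array. TTTGAA was in 8 of 11 (72.7%), 6 of 11 (54.5%) and 12.3%. All 8 also held CCAAT, a combination found in 5 of the 11 uncalled G2 and M phase genes (45.5%), in 0 of 10 genes of G1 and S phase and in 5.03% of promoters on the array. Called and uncalled G2 and M phase genes thus both held TTTGAA often, and the difference between them was not tested. The E2F-type letters TTTGGCG or TTTCCCG were in 0 of 11, 2 of 11 and 7.09%. Among genes of G1 and S phase they were in 5 of 10, and Mcm3, Mcm5, Mcm6 and Mcm7 each held them along with CCAAT. In the sequences printed above, Cdk1 has TTTGAA at 16 and 72 bases before the start with CCAAT boxes at 49 and 81, Prc1 at 18 with a box at 50, and Top2a at 22 with a box at 57. In Ect2 a further TTTGAA begins 3 bases before the start and runs past the printed end. These are matches of letters, and binding was not measured. All 32 promoters are counted, whatever the genes' level.

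Other cell cycle genes were read from 4 further lists, of which 81 genes were measured. In SBH/y after uninephrectomy 7 of 81 rose (8.64%, beside 3.06% of all probe sets) and 0 fell. In SBN/y 1 rose (1.23%, beside 0.0838% of all probe sets). With 1 kidney 8 were higher in SBH/y than in SBN/y (9.88%, beside 7.55%) and 3 lower (3.7%, beside 6.43%). With 2 kidneys 3 were higher (3.7%, beside 4.32%) and 5 lower (6.17%, beside 4.75%). The shares for strain were near those of all probe sets. Over the 14217 genes read from 1 probe set each, 4.76% rose after uninephrectomy in SBH/y and 0.155% in SBN/y. For strain these genes gave 10.2% higher and 7.48% lower with 1 kidney, and 5.5% and 5.54% with 2. The 7 that rose in SBH/y were 4 of 33 mitosis genes, 2 of 14 genes of G1 entry, 1 of 15 cell cycle brakes and 0 of 19 genes of replication origins, forks and repair, a list with 4 genes at an unadjusted p under 0.05, where 15.6% of all probe sets passed.

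Myc, the growth transcription factor, read 4.73, 4.83, 4.80, 5.05 and 4.88 in SBN/y with 2 kidneys and 5.05 to 5.42 (median 5.19) with 1. SBH/y ran from 5.33 to 5.84 (median 5.51) with 2 kidneys and from 6.12 to 6.89 (median 6.41) with 1. Myc rose by 0.93 ± 0.11 in SBH/y (adjusted p = 2.46e-06), with groups that did not overlap. It gave 0.36 ± 0.11 in SBN/y (adjusted p = 0.272), where the highest array with 2 kidneys (5.045) lay just under the lowest with 1 (5.051). Myc was higher in SBH/y by 0.68 ± 0.11 already with 2 kidneys (adjusted p = 7.76e-05). Cdk4, the G1 kinase that binds D cyclins, rose by 0.24 ± 0.05 in SBH/y (adjusted p = 0.00473). Its SBN/y arrays ran from 7.599 to 7.776 with 2 kidneys and from 7.815 to 8.007 with 1. These SBN/y groups did not overlap either, but Cdk4 was not called in SBN/y.

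Cks2, a small subunit of cyclin-dependent kinases, was the gene of the 81 with a called difference between the strains' responses. It read 5.25, 5.46, 5.08, 5.44 and 5.32 in SBN/y with 2 kidneys and 4.95 to 5.66 (median 5.47) with 1. In SBH/y it ran from 4.10 to 4.91 (median 4.63) with 2 kidneys and from 5.25 to 5.61 (median 5.51) with 1. The group set apart is SBH/y with 2 kidneys, which lay below the other 3. Cks2 rose by 0.87 ± 0.12 in SBH/y (adjusted p = 3.02e-05), and the response exceeded that of SBN/y by 0.79 ± 0.17 (adjusted p = 0.0395). With 2 kidneys it was lower in SBH/y by -0.72 ± 0.12 (adjusted p = 0.000164).

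Cdkn3, a phosphatase of cyclin-dependent kinases, rose in SBH/y by 0.67 ± 0.13 (adjusted p = 0.00129), from 3.32 ± 0.17 to 3.99 ± 0.31. Lmnb1, lamin B1 of the nuclear envelope, rose by 0.32 ± 0.08 (adjusted p = 0.0174) and Cenpf, a kinetochore protein, by 0.21 ± 0.06 (adjusted p = 0.0369). Cdkn1a encodes p21, an inhibitor of cyclin-dependent kinases. It was called in both strains, with a rise of 0.43 ± 0.07 in SBH/y (adjusted p = 0.000317) and 0.36 ± 0.07 in SBN/y (adjusted p = 0.0373). The difference between these responses was 0.07 ± 0.10 (adjusted p = 0.937).

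**Figure D5:**
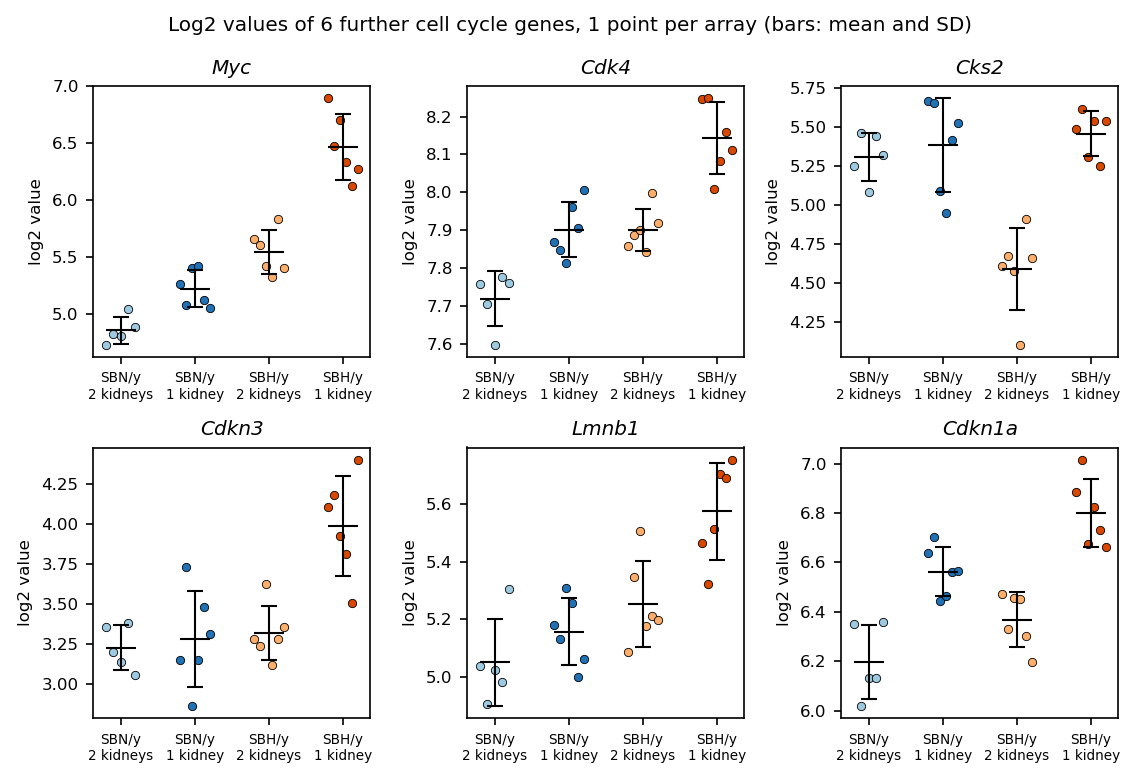
Log2 values of Myc, Cdk4, Cks2, Cdkn3, Lmnb1 and Cdkn1a (vertical axes) in the 4 groups (horizontal axes), 1 point per array, with mean and SD as bars. Myc is lowest in SBN/y with 2 kidneys (4.86) and highest in SBH/y with 1 (6.47), Cdkn1a is higher with 1 kidney in both strains, and Cks2 is low in SBH/y with 2 kidneys (4.59).

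Markers of other cell types moved with the cell cycle genes in SBH/y after uninephrectomy, and their part in the result was not tested. Among all probe sets, 3.06% were called higher and 1.97% lower in this comparison. Of 12 macrophage and myeloid markers 8 rose and 0 fell. The mean of that list per array ran from 5.94 to 6.34 in SBH/y with 1 kidney, from 5.61 to 5.71 with 2, and from 5.45 to 5.54 and 5.55 to 5.91 in SBN/y with 2 and 1. Of 8 markers of injured tubule 6 rose, and the list mean ran from 7.79 to 8.43 against 6.92 to 7.11 in SBH/y with 2 kidneys, 6.76 to 6.88 in SBN/y with 2 and 6.995 to 7.16 in SBN/y with 1. T and B lymphocyte markers rose in 4 of 9 (list mean 4.39 to 4.64 against 4.11 to 4.29 in SBH/y with 2 kidneys, 4.22 to 4.39 in SBN/y with 2 and 4.26 to 4.39 with 1). Plasma cell markers rose in 2 of 6, Jchain and Ighl2 (6.30 to 6.83 against 5.91 to 6.07, 5.81 to 5.99 and 5.71 to 6.05 in the same order). Fibroblast and pericyte markers rose in 4 of 8 (7.18 to 7.55 against 6.91 to 7.15, 6.95 to 7.03 and 6.94 to 7.17). Fcgr2b and Cd163 of the myeloid list, Ms4a1 of the lymphocyte list and Lum of the fibroblast list were under background in at least 3 groups. Podocyte markers fell in 3 of 5, endothelial markers in 2 of 7 and collecting duct markers in 2 of 6. Of 5 red cell markers only Slc4a1 fell (-0.43 ± 0.06, adjusted p = 9.68e-05, limma), while Hbb, Alas2, Klf1 and Ahsp were not called. Proximal tubule (9 genes) and thick ascending limb (3) had 0 calls in limma.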

How the data were processed

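RNA from male rat kidneys was extracted with an RNeasy kit, labelled with biotin and hybridised to Affymetrix arrays, 1 array per sample, per the labels' protocols. The authors deposited log2 values, 1 per probe set and array. They name GCOS and RMA without versions, per the submitters' processing notes. RMA includes a quantile step that equalises the arrays' distributions and hides any change in total mRNA. Array medians ran from 4.65 to 4.69, and the number of arrays limits the precision.

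Of 31099 probe sets, 57 controls were left out and 31042 tested. Exactly 1 gene symbol was given for 20826, several for 436 and none for 9780, and 20758 were found in RefSeq's GRCr8 annotation. A single limma fit (limma 3.58.1, R 4.3.3) took a mean for each of 4 groups, with two-sided tests and Benjamini-Hochberg adjustment over the probe sets of each contrast at 0.05. Tested on simulated data over 31042 probe sets for uninephrectomy in SBH/y, it found 90 of 100 changes of 0.5 log2 and 100 of 100 of 1 log2, with 16 false calls. Named with values were genes called in any contrast and, in each of 7 functional groups, the gene with the smallest p for uninephrectomy in SBH/y, as well as other cell cycle genes called there or for the difference between responses. Further genes given beside them were named to complete their functional group. The genes, lists and marker sets were chosen with earlier results of these data known. Replicate numbers were checked for pairing: over 33 same-numbered pairs the correlation of deviations from group means ran from -0.27 to 0.26, with 7 above 0.1, so they were not treated as pairs. Alternatives were a repeated quantile normalization, a filter at background, another variance model, a fit on the compared groups alone, a single probe set tested for each gene, a replicate block, a GAPDH covariate, a gene's next probe set and each array left out. Leaving out the 2 arrays with the lowest and highest SD was chosen after seeing the data.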

Additional observations from a re-analysis of the deposited data

Results flagged for a closer look

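Among 92 sets of values, the 22 named genes and the mean of the 38 genes in each of 4 groups, 9 held an array far from the others of its group by Dixon's test. Chance gives such an array in about 1 of 20 sets. In SBH/y with 1 kidney, replicate 3 stood apart with the lowest Ccnd1 value (8.927) and the highest Kif11 value (7.847). In SBN/y with 1 kidney, the arrays were replicate 3 for Mcm6 (3.441, low), replicate 4 for Aurkb (2.837, low), replicate 2 for Bub1 (2.409, low) and replicate 5 for Mki67 (3.51, high). The mean of the 38 genes was low in replicate 4 of that group, at -0.05 relative to SBN/y with 2 kidneys. In SBN/y with 2 kidneys, replicate 2 was low for Mcm2 (4.976) and replicate 1 for Ube2c (4.285). Cks2 was listed because its responses in the strains differed by 0.794 on the log2 scale (adjusted p = 0.0395, limma).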

How the results depend on the processing

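The count of genes called higher or lower after uninephrectomy in SBH/y, 13 as reported, ran from 9 to 14 over the other settings. With 1 array left out it ran from 11 to 16. The 9 came from reading each gene's next probe set, where a gene without one kept its only probe set. Top2a, Kif11, Kif23 and Nusap1, the called genes with a further probe set, all lost their calls there. Of the 13 genes, 8 were called in every fit with an array left out and 6 in every setting in which they were tested. None of these 6 had a further probe set, and Aurkb, among them, was removed by the filter at background. The strain comparison with 1 kidney gave 20 genes, 6 of them called in every setting in which they were tested. It gave 16 to 20 with 1 array left out, and 11 with the GAPDH covariate. With 2 kidneys it gave 2 genes, 1 to 2 with 1 array left out, 1 with the trended and robust variance and 1 without the 2 arrays of lowest and highest SD, 4 with only the groups compared, 4 with the GAPDH covariate and 0 with each gene's next probe set. The cause of these shifts was not tested. Uninephrectomy in SBN/y and the difference between responses gave 0 in every setting that could be fitted. A replicate block, for numbers that are only shared, gave 13 genes in SBH/y, 12 of them the same, with Top2a lost and Racgap1 gained. The block gave 0 in SBN/y, 2 and 20 for strain with 2 and 1 kidneys and 0 for the difference between responses. Read from the next probe set, the strain difference with 1 kidney reversed for Kif23 (-0.058, adjusted p = 0.745) and for Racgap1 (-0.002, adjusted p = 0.994). Of 767 values recomputed for single genes, 664 kept direction and call, 100 kept the direction and lost the call, 2 reversed and 1 gained a call. Levels near background limit what can be said of Ccna2, Bub1, Ttk, Bub1b, Aurkb and Ect2.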
